A study of Mus musculus with 2 samples.

Results

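Mitochondrial ribosomal protein genes are described here in the hearts of 2 mice. They were taken as the protein-coding genes whose symbol starts with Mrpl or Mrps followed by a digit. The rule found 78 of the 55536 annotated genes, 49 named for the large subunit (Mrpl) and 29 for the small subunit (Mrps). They belong to the 22015 nuclear protein-coding genes of the annotation, and 5 processed pseudogenes with such symbols were left out. All 78 passed the filter of a mean of 1 CPM (a count scaled to library size).

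The mitochondrial ribosome translates the few proteins encoded by mitochondrial DNA, which are subunits of the respiratory chain and ATP synthase. Its ribosomal RNAs come from mitochondrial DNA, whereas its proteins are encoded in the nucleus, made in the cytosol and imported. Some of these proteins have counterparts in bacterial ribosomes and others are found only in mitochondria, and heart muscle, which depends on oxidative phosphorylation, is one of the tissues affected when human counterparts of these genes are mutated.

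The strain was B6CASTF1/J, an F1 hybrid. Both mice were male and 25 days old, and the labels name no treatment or genetic change. Total RNA (300 ng) with added ERCC spike-ins gave 1 library per heart, numbered replicates 1 and 2. They carry the animal numbers 3 and 4 but 1 shared donor identifier, so how far the animals were independent is not stated. There was no second group, so nothing was compared between conditions, and a sign-flip test of 2 hearts cannot give a p below 0.5.

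The libraries held 38447822 and 40891189 estimated counts. Heart muscle markers were present at mean levels of 344 to 8557 TPM (transcript abundance per effective length, with libraries brought to an equal sum), and 5 skeletal muscle markers at means of 0 to 1.39 TPM. All 5 erythroid markers were lower in replicate 2, with a summed level of 46560 TPM in replicate 1 and 23410 TPM in replicate 2. The summed level of 5 adipocyte markers was 221 TPM in replicate 1 and 31.4 TPM in replicate 2, and that of 5 fibroblast markers 755 and 672 TPM. The part of this difference in cell content in the ratios given further on was not tested. Tissue RNA of this kind cannot tell fewer cells of a type from less RNA per cell.

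Every member was detected in both hearts, with means from 3.87 to 160.6 TPM. The large subunit genes had a median of 26.7 TPM in replicate 1 and 30.5 TPM in replicate 2, that is 28.6 ± 2.69 (SD, n = 2). The small subunit genes had 26.7 and 29.7 TPM, that is 28.0 ± 2.15 (SD, n = 2). The medians of the subunits did not separate: the log2 difference, large minus small, was -0.002 in replicate 1 and 0.035 in replicate 2, a mean of 0.017 ± 0.026 (SD, n = 2).

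Of the 78 genes, 74 reached 10 TPM in both hearts (47 large and 27 small), against 4513 of all 22015 nuclear protein-coding genes (20.5%). Ranked by mean TPM among the nuclear protein-coding genes, members had percentiles from 63.7 to 98.6, with a median of 91.7. The SD of log2 TPM over members was 0.98 (1.01 and 0.95 in replicates 1 and 2). It was 1.04 over 78 cytosolic ribosomal protein genes and 1.81 over the 10893 nuclear protein-coding genes at 1 TPM or more. For complex I, the first enzyme of the respiratory chain, it was 1.19 over 37 nuclear genes. These were taken by symbol alone (Ndufa, Ndufb, Ndufc, Ndufs or Ndufv followed by a digit), so some may encode other proteins. The lowest of them had a mean of 7.44 TPM, against a median of 296 TPM, and how far it set the SD was not tested. Among the 78 members, 60 lay within 2-fold of the member median, a count with no share over other lists beside it. Level and effective length ran in opposite directions, with a Spearman correlation of -0.51 across the 78 genes, which share both libraries and are not independent.

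**Figure D1:**
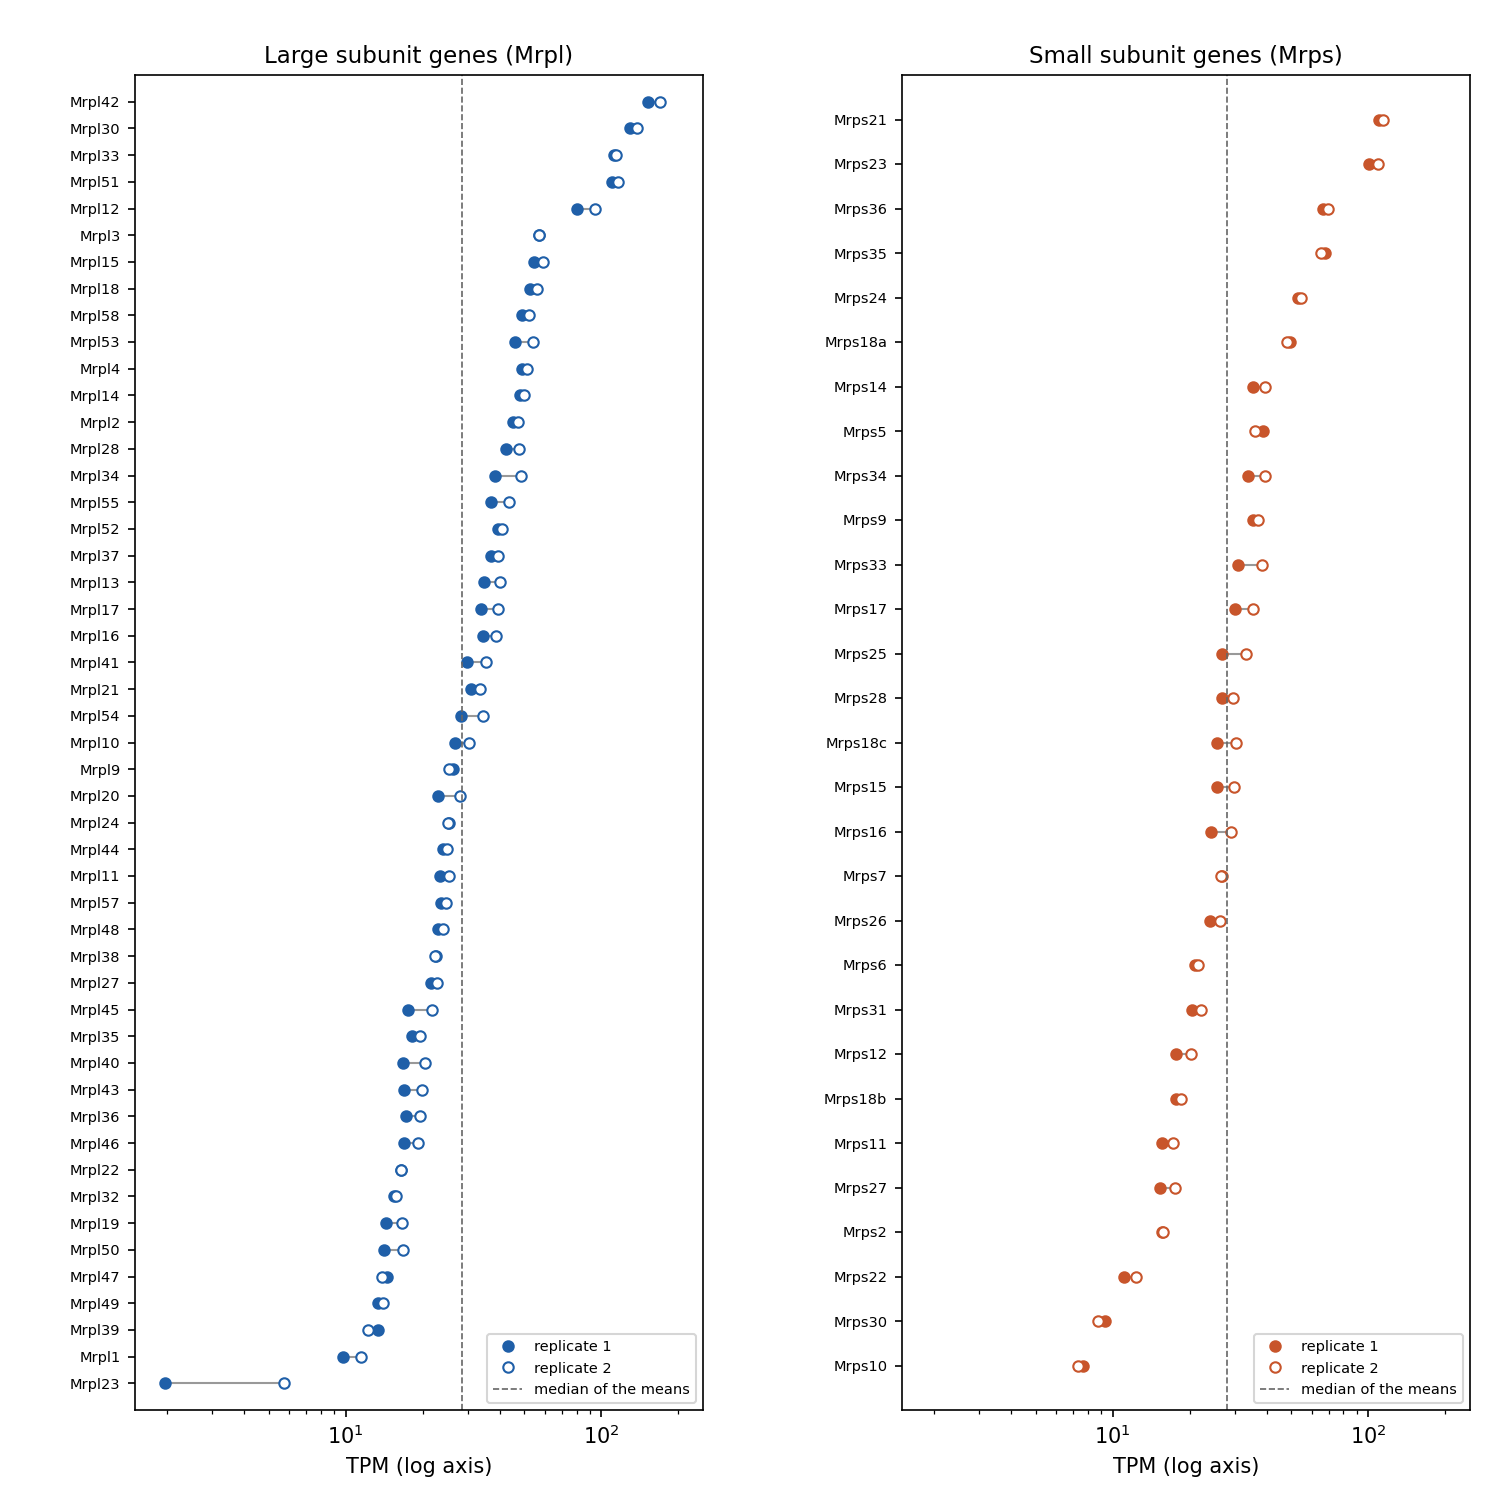
TPM on a log axis (x) of each of the 49 large and 29 small subunit genes (y, ordered by mean), with filled points for replicate 1, open points for replicate 2, grey lines joining the hearts and a dashed line at the subunit's median of 28.6 or 28.0 TPM. The hearts lie close together for all genes but Mrpl23, at 1.97 and 5.76 TPM.

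Among large subunit genes the highest was Mrpl42, which encodes a protein found only in mitochondrial ribosomes. It had 152 TPM in replicate 1 and 169 TPM in replicate 2, and lies at chr10:95480805-95501940 (mm10, minus strand). Mrpl30 (129 and 137 TPM), Mrpl33 (112 and 114 TPM) and Mrpl51 (110 and 116 TPM) followed. Mrpl30 and Mrpl33 encode counterparts of bacterial proteins and Mrpl51 a mitochondrial addition, so both kinds were among the most abundant. Mrpl15 (56.9 ± 3.26 TPM, SD, n = 2) and Mrpl18 (54.5 ± 2.38 TPM, SD, n = 2), both with bacterial counterparts, completed the highest 8 with Mrpl12 and Mrpl3.

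The stalk proteins, which recruit translation factors (Mrpl10, Mrpl11, Mrpl12) or guide the departing transfer RNA (Mrpl1), did not share a level. Mrpl12 had 79.96 and 94.2 TPM, Mrpl10 26.7 and 30.5 TPM, Mrpl11 23.4 and 25.4 TPM, and Mrpl1 9.76 and 11.5 TPM. Mrpl12, whose bacterial counterpart sits on each ribosome in several copies, was at 8.19 times the level of Mrpl1. These 2 genes did not overlap between hearts. All 4 were higher in replicate 2, as were 62 of all 78 members by the ratios given further on.

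Around the peptidyl transferase centre, where peptide bonds form, levels were more even than in the stalk. Mrpl3 had 57.3 and 57.1 TPM, Mrpl4 48.9 and 51.0 TPM, and Mrpl2 45.0 and 47.2 TPM. Mrpl16 had 34.4 and 38.6 TPM and Mrpl27 21.6 and 22.8 TPM. The 5 spanned 2.58-fold, and their median of 46.1 ± 1.55 TPM (SD, n = 2) was above that of the whole subunit. The 5 genes listed for the central protuberance and the 3 for the decoding site, given further on, spanned 2.80-fold and 2.82-fold. In the second quantification, a second set of deposited estimates made directly from the reads, Mrpl3 had a mean of 116 TPM. There Mrpl27 had 58.7 TPM and Mrpl16 was lowest, at 38.4 TPM.

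The polypeptide tunnel and its exit, through which the new protein reaches the inner membrane, had a lower median of 18.0 ± 1.49 TPM (SD, n = 2). Mrpl17 had 33.9 and 39.4 TPM, Mrpl24 25.4 and 25.1 TPM, and Mrpl45, whose protein anchors the ribosome to the membrane, 17.5 and 21.7 TPM. Mrpl22 had 16.5 TPM in both hearts, Mrpl47 14.5 and 13.8 TPM, and Mrpl23 1.97 and 5.76 TPM. Mrpl23 was the lowest of all 78 genes, a value that depends on the quantification.

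Among 5 genes listed here for the central protuberance, which faces the small subunit, Mrpl58 was highest, with 49.0 and 52.0 TPM. Its protein is a peptidyl-tRNA hydrolase that rescues stalled ribosomes as well as a structural part. The list may leave out other members of this structure. The others listed were at similar levels: Mrpl48 at 22.9 and 24.0 TPM, Mrpl38 at 22.6 and 22.4 TPM, Mrpl40 at 16.7 and 20.4 TPM, and Mrpl46 at 16.8 and 19.3 TPM. Mrpl40 and Mrpl46 overlapped between hearts, while Mrpl58, Mrpl48 and Mrpl38 were each separate from the next.

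The lowest large subunit genes after Mrpl23 and Mrpl1 were Mrpl39 (12.8 ± 0.785 TPM), Mrpl49 (13.7 ± 0.424), Mrpl47 (14.2 ± 0.488), Mrpl50 (15.5 ± 1.90), Mrpl19 (15.5 ± 1.54) and Mrpl32 (15.6 ± 0.170; all SD, n = 2). Mrpl39, Mrpl49 and Mrpl50 encode proteins without a bacterial counterpart, and the Mrpl32 protein is matured by a protease of the inner membrane before it is built in. Each of these 6 overlapped its neighbours in this order between hearts.

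On the small subunit Mrps21 was highest, with 110 and 114 TPM, ahead of Mrps23 with 100.4 and 109 TPM. In the second quantification the order was the reverse in both hearts, with Mrps23 at 138 and 159 TPM and Mrps21 at 122 and 147 TPM. Mrps21, at chr3:95862634-95871519 (mm10, minus strand), encodes a platform protein with a bacterial counterpart, while the Mrps23 protein, encoded at chr11:88204388-88211507 (mm10, plus strand), has none. Mrps36 (66.6 and 69.7 TPM) and Mrps35 (67.8 and 65.2 TPM) came next and overlapped. Mrps24 had 53.0 and 54.5 TPM, and Mrps18a 49.5 and 48.1 TPM.

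At the messenger RNA entry and decoding site, the 3 genes ran from Mrps24 down through Mrps5 (38.7 and 36.0 TPM) to Mrps12 (17.8 and 20.3 TPM), with no overlap. Head proteins showed a wider range: Mrps14 had 35.5 and 39.6 TPM, Mrps9 35.3 and 37.2 TPM, Mrps7 26.7 and 26.5 TPM, and Mrps10 7.65 and 7.31 TPM. Mrps10 was the lowest small subunit gene here, but in the second quantification it had 14.5 and 13.4 TPM and Mrps30 was lowest, at 9.37 and 9.09 TPM. On the platform, Mrps21 was far above the next member, Mrps18c (25.5 and 30.4 TPM), and the others were Mrps6 (21.03 and 21.7 TPM) and Mrps11 (15.7 and 17.2 TPM).

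Also low were Mrps30 (9.06 ± 0.375 TPM), Mrps22 (11.7 ± 0.891), Mrps2 (15.7 ± 0.0354), Mrps27 (16.4 ± 1.62) and Mrps18b (18.1 ± 0.544; all SD, n = 2). The Mrps27 protein belongs to the pentatricopeptide repeat family of RNA-binding proteins. Mrps2, Mrps27 and Mrps11 overlapped in the 2 hearts, whereas Mrps10, Mrps30 and Mrps22 were each separate from the next. In the second quantification Mrps10 (14.5 and 13.4 TPM) and Mrps22 (12.5 and 14.7 TPM) overlapped.

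Proteins with bacterial counterparts and those added in mitochondria were compared within each subunit by place. The 30 large subunit genes with a bacterial counterpart had a median of 34.4 ± 2.62 TPM and the 21 without 24.1 ± 0.806 TPM (SD, n = 2), so the first was higher in both hearts. On the small subunit, the 16 with a counterpart had 27.8 ± 2.47 TPM and the 10 without 27.6 ± 3.04 TPM (SD, n = 2), a difference within the spread between hearts. Symbols do not always give the place: the proteins of Mrps18a and Mrps30 sit in the large subunit, and that of Mrps36 belongs to the 2-oxoglutarate dehydrogenase complex. With these moved or left out, the log2 difference of the subunit medians was 0.033 ± 0.008 (SD, n = 2).

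The 3 genes descended from a bacterial S18 gene were at unequal levels, with Mrps18a at 48.8 ± 0.990 TPM, Mrps18c at 28.0 ± 3.48 TPM and Mrps18b at 18.1 ± 0.544 TPM (SD, n = 2). Mrps18a, Mrps18c and Mrps18b kept this order in both hearts. In the comparison above, Mrps18c was counted as having a bacterial counterpart, and Mrps18a and Mrps18b as mitochondrial additions despite this descent. Of 4 genes whose human counterparts are linked to mitochondrial disease with cardiomyopathy, Mrpl3 and Mrps14 were above the member median. These levels count all transcripts of a gene. Transcripts annotated as protein_coding held 10.9% and 10.2% for Mrpl3 and 4.14% and 5.22% for Mrps14 in replicates 1 and 2. In the second quantification they held 18.3% and 23.7% for Mrpl3 and 95.3% and 97.1% for Mrps14. Mrpl44 had 24.0 and 25.0 TPM, and Mrps22 11.1 and 12.3 TPM.

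Genes of the same pathway set the members in context. The 5 mitochondrial ribosome proteins with other symbols all exceeded 10 TPM: Dap3, a small subunit protein that binds GTP, had 46.3 ± 4.40 TPM, Ptcd3 44.4 ± 1.82 TPM, Chchd1 42.8 ± 3.34 TPM, Aurkaip1 37.1 ± 2.91 TPM and Gadd45gip1 10.4 ± 0.431 TPM (SD, n = 2). The 11 translation factors had a median of 14.3 TPM but a wide range, from Tufm, the elongation factor that delivers transfer RNAs (114 and 118 TPM), and Gfm1, which moves the ribosome along (73.5 and 82.1 TPM), down to Mtfmt, which formylates the initiator transfer RNA (1.97 and 2.03 TPM). The 21 assembly and ribosomal RNA modification genes were lower, with a median of 8.76 TPM in both hearts and 4 of 21 at 10 TPM or more. Among 8 genes of mitochondrial transcription and messenger RNA handling the median was 18.1 ± 1.87 TPM (SD, n = 2), led by the RNA-stabilising partners Slirp (56.3 TPM) and Lrpprc (52.6 TPM).

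The ribosomal RNAs were far more abundant than the protein messengers, with mt-Rnr1, of the small subunit, at 54979 ± 644 TPM and mt-Rnr2, of the large subunit, at 129590 ± 7770 TPM (SD, n = 2). The label of the spike-ins names stranded libraries with reduced ribosomal RNA. What that reduction left of these 2 RNAs was not tested. The median of 78 cytosolic ribosomal protein genes was 180 ± 3.28 TPM and that of the 37 genes listed by symbol for complex I 296 ± 10.2 TPM (SD, n = 2). The members' median of 28.1 ± 2.41 TPM (SD, n = 2) was below both in each heart.

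**Figure D2:**
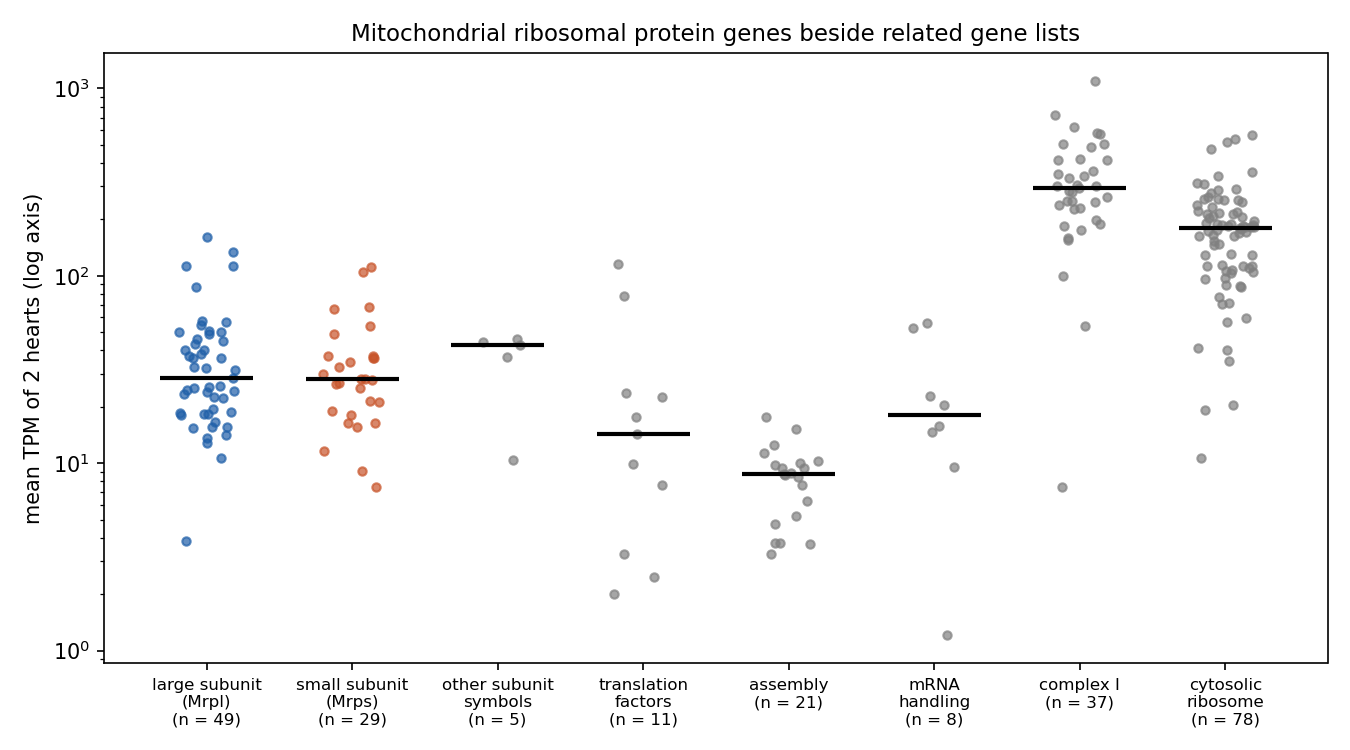
Mean TPM of the 2 hearts on a log axis (y) for single genes (points) of 8 lists (x, with the number of genes), and the median of each list (black bars). Both subunits, at medians of 28.6 and 28.0 TPM, lie above the assembly genes (8.76 TPM) and below complex I (296 TPM) and the cytosolic ribosome (180 TPM).

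Many members start close to another gene. A protein-coding gene on the opposite strand began within 1000 bases of the start of 33 of the 78 (42.3%), against 1801 of the 10893 nuclear protein-coding genes at 1 TPM or more (16.5%). Mrpl46 and Mrps11, on chromosome 7, form such a pair and had similar levels, at 18.1 ± 1.72 and 16.4 ± 1.05 TPM (SD, n = 2). Mrps27 (16.4 TPM) was likewise near its neighbour Ptcd2 (17.1 TPM), a gene for an RNA-binding protein of mitochondria. Of the 33 neighbours, 25 were lower than the member, with Mrpl46 and Mrps11 each counted as the other's neighbour. Most nuclear protein-coding genes rank below a typical member (median percentile 91.7), and the share for other pairs was not computed. Mrpl30 had 133 TPM and its neighbour Mitd1 1.43 TPM, and Mrpl51 had 113 TPM and its neighbour Ncapd2 8.13 TPM. Others were far higher: Mrpl36 (18.3 TPM) adjoins the complex I gene Ndufs6 (415 TPM), Mrpl47 (14.2 TPM) adjoins Ndufb5 (302 TPM) and Mrpl49 (13.7 TPM) adjoins Fau (184 TPM), which encodes a cytosolic ribosomal protein. The libraries are labelled stranded but the strand setting of the counting is not given, so reads where these genes overlap may be shared between them: 36 members overlap a gene on the opposite strand, and 17 overlap a gene at 1 TPM or more.

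RefSeq start-site windows (GRCm38.p6, 250 bases before to 50 after the start) were matched by symbol for 69 of the 78 members. Of these windows, 54 lay within 100 bases of the start of the member's most abundant transcript. The farthest, that of Mrps25, lay 8121 bases away, and all 69 were used. Exact letters of known motifs were searched in the 69, in 8550 windows of nuclear protein-coding genes at 1 TPM or more, and in 16521 windows of all such genes, on both strands unless stated. The ETS core CCGGAAG, bound among others by the mitochondrial gene regulator GABP (NRF-2), was in 25 windows (36.2%), against 19.8% and 12.6%. The YY1 letters AAGATGGC were in 12 (17.4%), against 5.08% and 3.31%, and the NRF1 letters GCGCATGC in 8 (11.6%), against 5.77% and 3.80%. The shorter NRF1 core TGCGCA was in 21 (30.4%), against 14.9% and 10.1%, and overlapped the longer one in 6 windows. The CCAAT box (CCAAT) was in 39.1%, against 38.6% and 38.7%, and overlapped TGCGCA in 1 window, and the cyclic AMP element TGACGTCA in 2.90%, against 3.29% and 2.38%. The SP1 letters GGGCGG were in 49.3%, against 67.8% and 48.7%, and overlapped CCGGAAG in 2 windows. TATAAA, read on the gene's strand alone, was in 4.35%, against 3.99% and 8.59%. Members with CCGGAAG had a median of 34.8 TPM and those without 25.3 TPM. For the other letters more frequent in members the order was the opposite: 18.9 TPM with AAGATGGC and 28.0 TPM without, 21.9 TPM with GCGCATGC and 27.7 TPM without, and 25.8 TPM with TGCGCA and 29.0 TPM without. These are letter matches, not bound sites, and they carry no test.

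Shown first, as examples of the matched letters, is the most abundant member of each subunit with an ETS or YY1 match and a window within 100 bases of the start of its leading transcript. The shared window of Mrpl46 and Mrps11 follows, as an example of a pair. For Mrpl42 (chr10:95501900-95502199, GRCm38, minus strand) the capitals mark AAGATGGC, which begins 27 bases after the RefSeq start. For Mrps23 (chr11:88204138-88204437, GRCm38, plus strand) they mark CTTCCGG, the reverse complement of CCGGAAG, 15 bases after it. For Mrpl46 (chr7:78783040-78783339, GRCm38, minus strand) they mark the 141 bases that also lie in the window of Mrps11 (chr7:78782881-78783180, plus strand).
Mrpl42: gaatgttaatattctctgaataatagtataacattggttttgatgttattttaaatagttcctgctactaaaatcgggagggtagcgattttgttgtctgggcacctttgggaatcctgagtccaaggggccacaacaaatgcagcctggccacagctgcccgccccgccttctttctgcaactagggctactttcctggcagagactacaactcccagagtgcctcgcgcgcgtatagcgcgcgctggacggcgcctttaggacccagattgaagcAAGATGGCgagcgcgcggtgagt
Mrps23: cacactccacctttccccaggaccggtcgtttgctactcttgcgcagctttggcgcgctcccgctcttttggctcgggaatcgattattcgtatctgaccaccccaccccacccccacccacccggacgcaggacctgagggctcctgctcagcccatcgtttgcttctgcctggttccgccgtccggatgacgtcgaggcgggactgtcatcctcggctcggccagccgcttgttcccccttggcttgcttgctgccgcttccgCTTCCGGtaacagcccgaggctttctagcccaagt
Mrpl46: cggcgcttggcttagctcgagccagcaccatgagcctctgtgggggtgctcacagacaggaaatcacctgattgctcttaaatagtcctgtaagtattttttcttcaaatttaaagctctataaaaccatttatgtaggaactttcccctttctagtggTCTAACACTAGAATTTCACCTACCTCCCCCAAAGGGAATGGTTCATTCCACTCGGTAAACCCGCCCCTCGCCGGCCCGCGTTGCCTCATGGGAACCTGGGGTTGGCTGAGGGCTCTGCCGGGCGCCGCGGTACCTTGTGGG

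Nearly every member differed by less than 25% between the 2 hearts. Counts were scaled by TMM (edgeR), and each log2 ratio is replicate 2 over replicate 1 with an exact 95% binomial interval, which covers counting error only and not the spread between animals. Of 78 members 1 was higher by 25% or more in replicate 2, against 6.59% of the 12913 genes tested, and 0 in replicate 1, against 8.39%. The same gene, Mrpl23, was past 1.5-fold, against a background of 1.54% of genes toward replicate 2 and 3.0% toward replicate 1. The median absolute log2 ratio was 0.10 over members and 0.12 over all genes tested.

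The small differences leaned one way. The median log2 ratio of members was 0.08, and 62 were higher in replicate 2 and 16 in replicate 1. The median was 0.00 over nuclear protein-coding genes past the filter, with 6074 higher and 5879 lower in replicate 2. It was 0.06 over the complex I list (28 higher, 9 lower) and -0.03 over cytosolic ribosomal protein genes (27 higher, 51 lower). With spike-ins as the scale the members' median was -0.05 and that of nuclear protein-coding genes -0.13, so the sign of the members' median depended on the scale. A scale moves every gene's ratio by the same amount and so leaves the gap between lists as it is. No test of this difference is possible with 1 library per heart, and the intervals of 31 of the 78 members excluded 0, against 33.1% of all genes tested.

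After Mrpl23, the largest ratios toward replicate 2 were those of Mrpl34, Mrpl54, Mrps17 and Mrpl40. Mrpl34, with a bacterial counterpart, had 38.5 and 48.6 TPM, a log2 ratio of 0.30 (95% 0.15 to 0.45). Mrpl54, a mitochondrial addition, had 28.3 and 34.6 TPM (log2 ratio 0.25) and Mrps17, with a bacterial counterpart, 30.1 and 35.5 TPM (log2 ratio 0.23). Mrpl40 had a log2 ratio of 0.23. Toward replicate 1 the largest were Mrpl39 (13.4 and 12.3 TPM, log2 ratio -0.16, 95% -0.29 to -0.02), Mrps30 (-0.13), Mrps10 (-0.12), Mrps18a (-0.11) and Mrps5 (-0.10). Apart from Mrpl23, no member exceeded a 1.23-fold difference. On the same scale the ribosomal RNAs mt-Rnr1 and mt-Rnr2 had log2 ratios of -0.07 and -0.16.

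**Figure D3:**
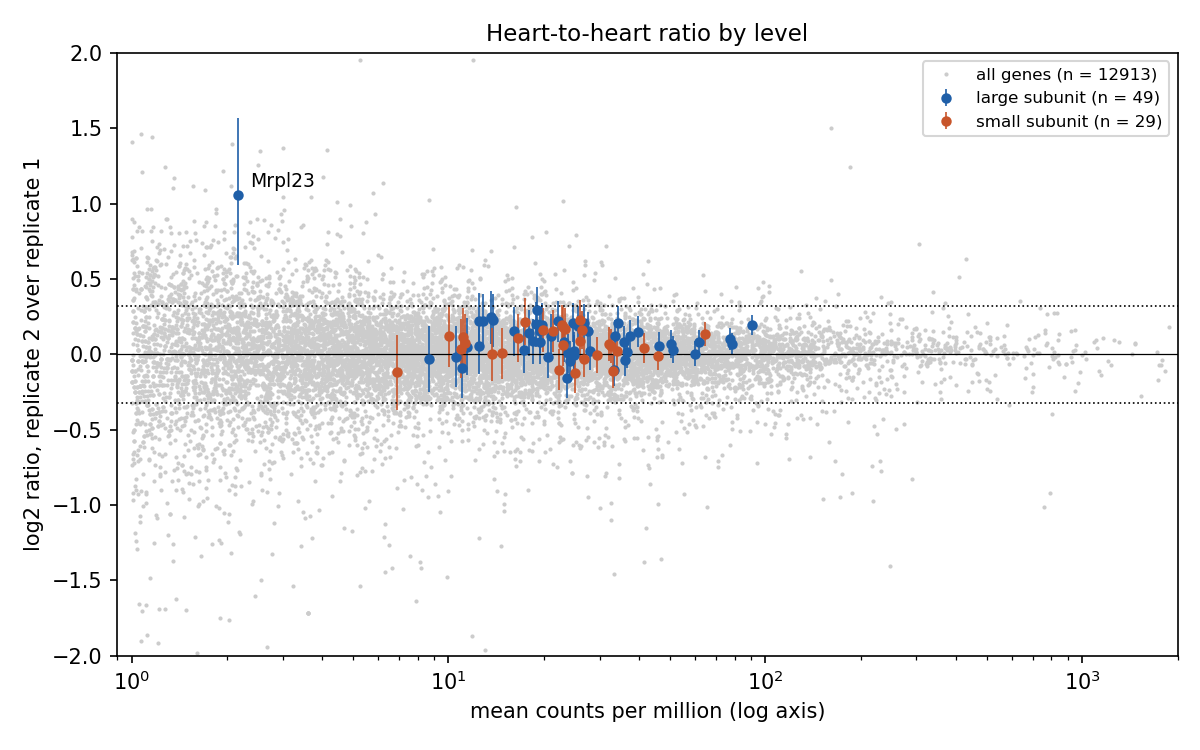
Log2 ratio of replicate 2 over replicate 1 (y) against mean CPM on a log axis (x) for all 12913 genes tested (grey, 70 of them outside the plotted range) and for members with 95% counting intervals (coloured), dotted lines marking a level 25% higher in either heart. Mrpl23 is the only member outside the dotted lines, with a log2 ratio of 1.06.

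Mrpl23, a tunnel exit protein, differed most between the hearts and between the quantifications, beside a nearly identical copy elsewhere in the genome. The gene (ENSMUSG00000037772.13, chr7:142532686-142540747, mm10, plus strand) had 52.2 and 121 estimated counts, a log2 ratio of 1.06 (95% 0.59 to 1.57). The deposited credibility bounds of its TPM were 1.19 to 12.2 in replicate 1 and 2.54 to 14.1 in replicate 2, and so overlapped. Its processed pseudogene Mrpl23-ps1 (chr2:74591330-74591909, mm10, minus strand), an intronless copy that is not counted as a member, had 655 and 654 counts (41.6 and 38.7 TPM). Of the counts on both, 92.6% in replicate 1 and 84.4% in replicate 2 were on the copy. The longest-matching Mrpl23 transcript and the copy share an unbroken identical run of 540 bases, longer than the coding sequence of 441 bases. The first 120 coding bases, from the start codon in capitals, are shown because the identical letters stand in both.
Mrpl23: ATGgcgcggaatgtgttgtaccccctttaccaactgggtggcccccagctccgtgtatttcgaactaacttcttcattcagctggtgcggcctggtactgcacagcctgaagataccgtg

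With Mrpl23 and Mrpl23-ps1 summed, the level was 43.6 and 44.5 TPM and the log2 ratio -0.01 (95% -0.16 to 0.14), so the difference between hearts was not seen in the sum. The second quantification, made directly from the reads, listed the copy at 0 in both hearts and gave Mrpl23 57.0 and 60.9 TPM with a log2 ratio of -0.01. There Mrpl23 lay above the large subunit median of 38.4 TPM and was not the lowest member. Which assignment of the shared reads is right was not tested.

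Copies of this kind were searched for all members, at 95% identity or more over at least 200 bases. Copies of other genes were not searched for, so the counts have no share beside them. Counting copies that match in the transcript's own direction, 18 members had 23 processed pseudogene copies, transcribed ones included, and 7 of these copies reached 1 TPM in either heart in the first quantification. They were Mrpl23-ps1, Gm5776, a copy of Mrps33 (10.4 and 8.67 TPM), Mrpl48-ps (4.98 and 7.51 TPM), AC154457.3, a copy of Mrps10 (3.06 and 2.65 TPM), Gm13328, a copy of Mrps5 (2.02 and 2.38 TPM), Gm6419, a copy of Mrpl42 (1.04 and 2.22 TPM), and Gm12244, a copy of Mrps16 (1.41 and 0.72 TPM). In the second quantification 6 of the 7 were listed at 0 and AC154457.3 was not, at 3.89 and 4.01 TPM. The levels of these 7 members, Mrps10 included, are uncertain where reads match both the member and its copy. How far such reads changed the levels was not tested.

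Over the 78 genes, log2 TPM had a Pearson correlation of 0.98 between hearts and 0.86 between quantifications, as descriptions across genes that share libraries. The second quantification gave higher levels, by a median log2 difference of 0.37 over members and 0.27 over nuclear protein-coding genes at 1 TPM or more. Past 2-fold were Mrpl23 (log2 difference 3.90), Mrpl27 (1.40) and Mrpl3 (1.01), all higher in the second. They were 3.85% of members, against 2.66% of nuclear protein-coding genes at 1 TPM or more. Mrpl27 rose from 22.2 to 58.7 TPM and Mrpl3 from 57.2 to 116 TPM.

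**Figure D4:**
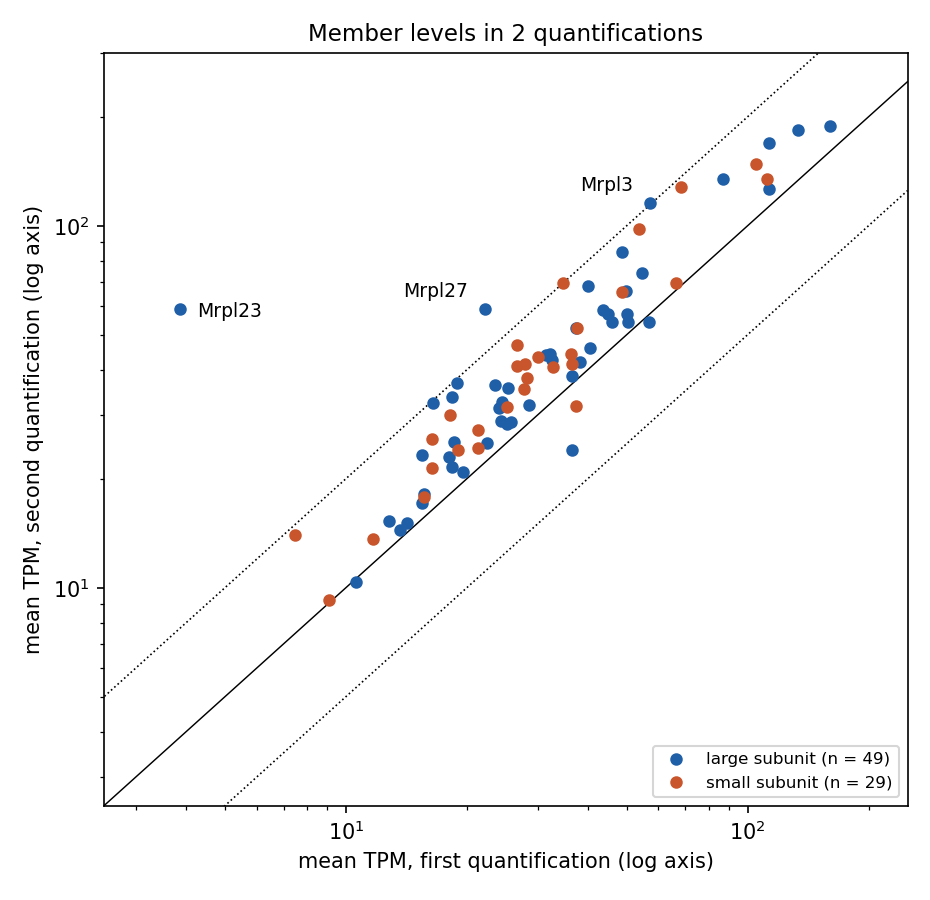
Mean TPM of the 2 hearts in the second (y) against the first quantification (x), both on log axes, for each member (points coloured by subunit), with the line of equality (solid) and 2-fold lines (dotted). Mrpl23, at 3.87 and 59.0 TPM, lies far above the 2-fold line, and Mrpl27 and Mrpl3 lie past it too.

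Each gene's abundance was also divided among its annotated transcripts. For 76 of 78 members 1 transcript was the most abundant in either heart (97.4%), against 89.3% of nuclear protein-coding genes at 1 TPM or more, the exceptions being Mrpl1 and Mrpl24. The leading transcript held over 50% of the abundance in both hearts for 69 members. It was the same in both hearts and both quantifications for 54. For neither of these counts was the share over other genes computed.

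Transcripts annotated as protein_coding held a median of 96.8% of a member's abundance in replicate 1 and 95.8% in replicate 2. The rest was in transcripts annotated as retaining an intron, as targets of nonsense-mediated decay or as processed transcripts without a coding frame. Of the 78 members, 8 had under 10% in protein_coding transcripts, a count with no share over other genes beside it. Under 50% were 17 (21.8%), against 7.80% of nuclear protein-coding genes at 1 TPM or more. The share under 80% was 29.5% of members and 29.7% of those genes.

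Mrps16 had 3.28% and 3.48% in protein_coding transcripts, with 96.7% and 96.5% in the processed transcript Mrps16-202. Mrps26 had 96.6% and 97.2%, and Mrpl57 94.6% and 94.2%, in 1 retained intron transcript each. Mrps14 had 95.9% and 94.8% in a nonsense-mediated decay transcript. Mrpl15 (5.56% and 5.66%), Mrpl51 (5.61% and 6.06%), Mrps25 (7.63% and 6.94%) and Mrpl32 (8.66% and 6.2%) were the next lowest in protein_coding share. Mrps16, Mrps26 and Mrpl57 encode small subunit, small subunit and large subunit proteins, so the pattern was not limited to either subunit.

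The second quantification gave under 50% for 13 of the 17 too. Mrps16 had 0.51% and 0.99% there, Mrps26 2.97% and 2.65%, and Mrpl57 4.24% and 4.51%. Mrps14 went the other way, to 95.3% and 97.1%, and so did Mrps11, from 38.5% and 35.7% to 81.3% and 80.3%. For Mrpl27 the share was 98.2% in the first and 44.4% in the second, as means of the hearts. The gap was wider for Mrpl17 (80.5% and 22.2%), and Mrpl12 (99.1% and 61.4%), Mrps36 (95.4% and 56.4%) and Mrpl22 (93.8% and 54.9%) were also lower in the second. In all, 13 members differed by 25 percentage points or more, 10 lower and 3 higher in the second, a limit chosen after the values were seen. The annotation's label of a transcript does not show which RNA was translated.

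**Figure D5:**
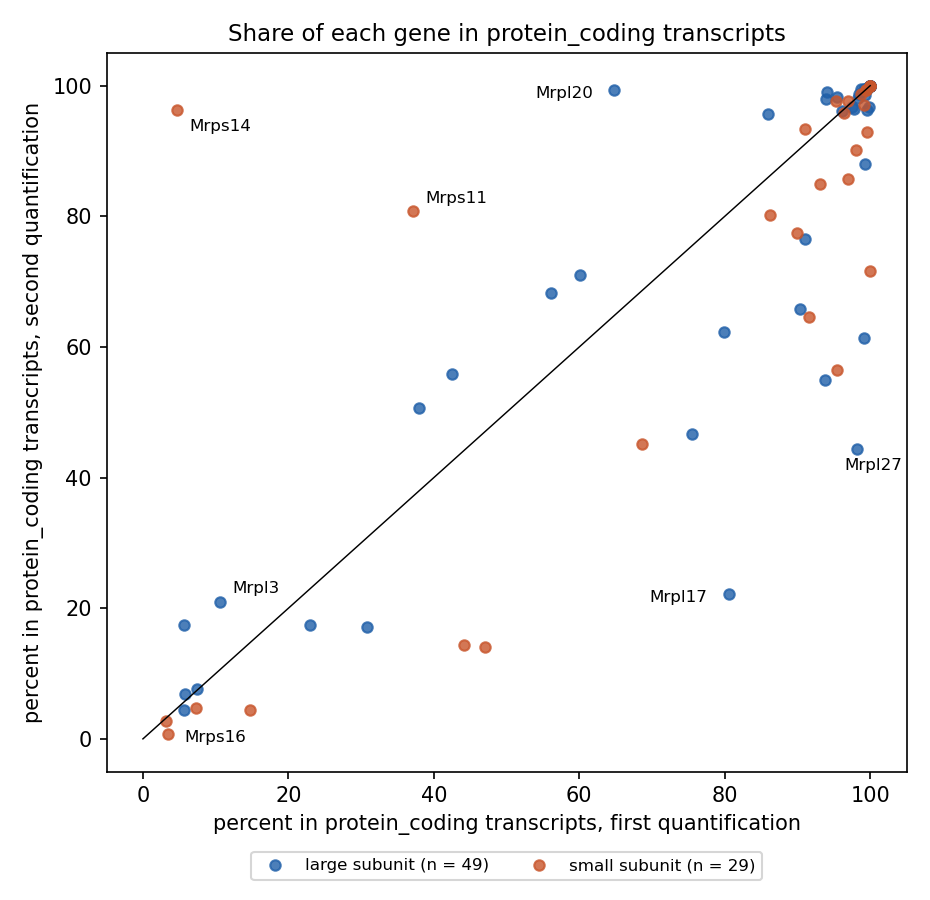
Percent of each member's abundance in transcripts annotated as protein_coding, as a mean of 2 hearts, in the second (y) against the first quantification (x), with the line of equality and points coloured by subunit. Many members lie near 100% in both, Mrps16 near 0% in both, and Mrps14, Mrps11, Mrpl17 and Mrpl27 far from the line.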

How the data were processed

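Per the text files the authors deposited, a first quantification came from an alignment to the transcriptome and a second directly from reads, both on mm10 with GENCODE M21 annotation. The sources used here name no tools, versions or strand setting for it. Expected counts (estimated, not whole numbers) and TPM per gene and transcript were deposited by the authors, as were each transcript's percent of its gene and credibility bounds of TPM. The second transcript tables were summed to genes. The 26248 transfer RNA rows (3 and 1.85 counts) and 97 spike-ins stayed out of library sizes.

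The filter (mean CPM at least 1) kept 12913 genes, and TMM factors (edgeR 4.0.16, R 4.3.3) gave the ratios between hearts, with a prior count of 0.5. Ratios were tested on simulated data. Log2 TPM used a pseudocount of 0.1. Alternatives used DESeq2 1.42.0 size factors, spike-ins and others.

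The members and lists were chosen with earlier results of these data known. Named were the 8 highest and 8 lowest of each subunit, the 5 largest ratios each way, all members of role groups, those lowest in protein_coding share and those differing 2-fold between quantifications. Counts can be wrong where copies or overlapping genes share reads.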

Additional observations from a re-analysis of the deposited data

How the results depend on the processing

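The subunit medians moved with the scale: 38.4 (large) and 40.7 TPM (small) in the second quantification, and 76.8 and 75.2 TPM when TPM was rescaled over nuclear protein-coding genes. The log2 difference of the subunit medians reversed to -0.054 in the second quantification, and without 1 replicate it ran from -0.0016 (replicate 1 alone) to 0.035. The SD of log2 TPM over members was 0.932 with posterior mean TPM and 0.942 with a pseudocount of 1. The median percent in protein_coding transcripts was 95.2 with posterior mean percents. The median log2 ratio between hearts was 0.14 with total counts and reversed to -0.055 with spike-ins. With total counts 2 members differed by 25% or more, Mrpl23 and Mrpl34, and in the second quantification Mrpl34 alone. The log2 ratio of Mrpl23 reversed to -0.0058 in the second quantification.

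Chosen after seeing the data, adding its copy to Mrpl23 gave it a log2 ratio of -0.014, and gave 31.4 TPM for the large subunit median, 0.13 for the difference of subunit medians, 0.912 for the SD and 0 members differing by 25%. Without Mrpl23 the last 3 were 0.073, 0.916 and 0. The cause of these shifts was not tested, except that Mrpl23 moved them by its own value. With either heart left out, the medians were 26.7 to 30.5 (large) and 26.7 to 29.7 TPM (small), the SD 0.953 to 1.01, and 74 to 75 members reached 10 TPM. Counts of members at 10 TPM, and of members with 1 leading transcript in both hearts, stayed within 1.5 times under each alternative tried. No paired analysis was possible because there is 1 group. Depth limits single ratios: members had 52.2 to 4013 counts.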
